A study of Mus musculus with 3 samples.

Results

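The measurements described here are those of 4 microRNA probes, miR-22, miR-130a, miR-378 and miR-328, of the 566 probes in a table of serum miRNAs from tumour-bearing mice. They were found by exact probe name, and were selected on their signal in these pools, with the data known, as well-measured and broadly expressed miRNAs outside the groups that usually mark a cell type. Their level is therefore a description and not a finding. The study asked which cell-free miRNAs differ in serum with the Tn status of a mammary tumour. Tn is a truncated O-glycan that is exposed when O-glycan chains are not extended.

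The groups were serum of mice with Tn+ tumours (2 pools) and serum of mice with Tn- tumours (1 pool). All mice were female BALB/c, 6 to 8 weeks old per the labels, and carried 4T1 cells, a mouse line of triple-negative breast cancer. The inoculum was 100000 cells in the fat pad of the fourth right mammary gland, and serum came from a study in which animals were killed on day 28. The 4T1/Tn+ line was made with a CRISPR/Cas9 guide to exon 2 of Cosmc (written Ccosmc in the labels), which encodes a chaperone needed for O-glycan extension. The labels describe no other edit, and do not say whether this line is 1 clone or how the cells of the Tn- tumours were handled. Serum was pooled by Tn status before RNA extraction, and the number of mice in a pool is not given beyond a minimum of 8 mice per group. Nothing says that the 2 Tn+ pools came from separate mice, so p-values measure only the spread between these pools, which may be technical, and the Tn- pool has no replicate.

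A miRNA is a short RNA, cut from a hairpin precursor, that guides the Argonaute complex to messenger RNAs. Pairing runs mainly through bases 2 to 8, the seed, and lowers the stability or translation of the target. Serum miRNAs travel in vesicles or bound to protein, and come from blood cells, vessel walls and solid tissues, tumours included. In bulk serum, a change in the number of cells that release a miRNA and a change in the amount each releases cannot be told apart.

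The mature sequences are shown because the seed defines the family to which a miRNA belongs and because closely related sequences are measured by separate probes. Sequences were matched for 2 of the 4 members, credited to RefSeq (GRCm38.p6). The probe names carry no arm, and miR-22 and miR-130a were matched to the 3p arm, the arm the plain name denotes in the older naming. Capitals mark the seed, bases 2 to 8 from the 5′ end.
miR-22-3p: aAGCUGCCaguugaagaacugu
miR-130a-3p: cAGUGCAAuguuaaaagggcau
miR-130b-3p: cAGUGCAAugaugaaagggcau
miR-301a-3p: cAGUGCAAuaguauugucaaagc
These lie at chr11:75463772-75463793 on the plus strand for miR-22-3p, chr2:84741116-84741137 on the minus strand for miR-130a-3p, chr16:17124071-17124092 on the minus strand for miR-130b-3p and chr11:87113054-87113076 on the plus strand for miR-301a-3p. miR-130b has 20 of 22 letters in common with miR-130a at the same position from the 5′ end, and miR-301a has 12 of 22. No other entry of the sequence table had the seed of miR-22.

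The hairpins show where the mature arm sits in each precursor, here in capitals.
Mir22: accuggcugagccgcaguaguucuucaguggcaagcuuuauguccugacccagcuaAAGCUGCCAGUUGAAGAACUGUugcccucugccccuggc
Mir130a: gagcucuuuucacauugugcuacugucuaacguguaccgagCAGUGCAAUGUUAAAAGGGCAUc
Mir22 (chr11:75463716-75463810, plus strand) is 95 bases long and holds the mature arm at bases 57 to 78. Mir130a (chr2:84741115-84741178, minus strand) is 64 bases long and holds it at bases 42 to 63. In the RefSeq gene table, Mir22 overlaps the non-coding host gene Mir22hg. Mir378a overlaps Ppargc1b, which encodes the transcriptional coactivator PGC-1β, and Mir328 overlaps Elmo3, a gene of the ELMO family of engulfment proteins. Mir130a overlaps no other gene, and none of the 4 has another miRNA gene within 10 kb. The panel holds 0 probes named for the opposite arm of any of the 4 hairpins.

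Values are normalized signal in arbitrary units, as deposited. The summed signal of all probes was 59444 and 31977 units in Tn+ pools 1 and 2, against 4204 units in the Tn- pool. The red cell miRNA miR-451 held 72.4% and 41.2% of it in the Tn+ pools, against 44.1% in Tn- serum. Without miR-451, the totals were 6.99-fold and 8.01-fold those of the Tn- pool. The lowest value, the floor, was shared by 338 and 416 probes in the Tn+ pools and by 481 in the Tn- pool, and 307 probes were at the floor in every pool. Low values lay on a grid with a step of 0.896 and 1.09 units in the Tn+ pools and 1.08 units in the Tn- pool. The summed signal of lists of cell type miRNAs, leaving out values at the floor, was also higher in Tn+ serum on the deposited scale. The 6 red cell miRNAs, all above the floor in some pool, summed to 49063 and 22618 units against 2238, with 5 of the 6 higher in both Tn+ pools. The 4 myeloid miRNAs summed to 899 and 444 units against 287 (3 higher in both), and the 5 of platelets and endothelium to 122 and 93.9 against 10.2 (4 higher in both). Of 6 striated muscle miRNAs, miR-133b and miR-206 were at the floor everywhere, 1 was higher in both, and the list summed to 10.3 and 3.88 units against 3.16. The lists of lymphocytes (3 of 4 higher in both), hepatocytes (2 of 3) and epithelium (3 of 7) summed to 41.7 to 420 units in the Tn+ pools, against 8.04 to 24.2 units in the Tn- pool. Of these lists, miR-155, miR-192, miR-200a, miR-200c and miR-141 were at the floor in every pool, and miR-200b had a log2 ratio of -1.75. The part of these shifts in the results below was not tested.

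All 4 miRNAs had more signal in both Tn+ pools than in the Tn- pool. The excess, on the deposited scale, ran from 3.33-fold for miR-378 in Tn+ pool 1 to 11.0-fold for miR-22 in the same pool. None passed limma's adjusted p of 0.05 over all 566 probes, and with the pools scaled to equal totals the mean log2 ratio of each of the 4 was below 0, though miR-328 stayed above 0 in Tn+ pool 2.

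**Figure D1:**
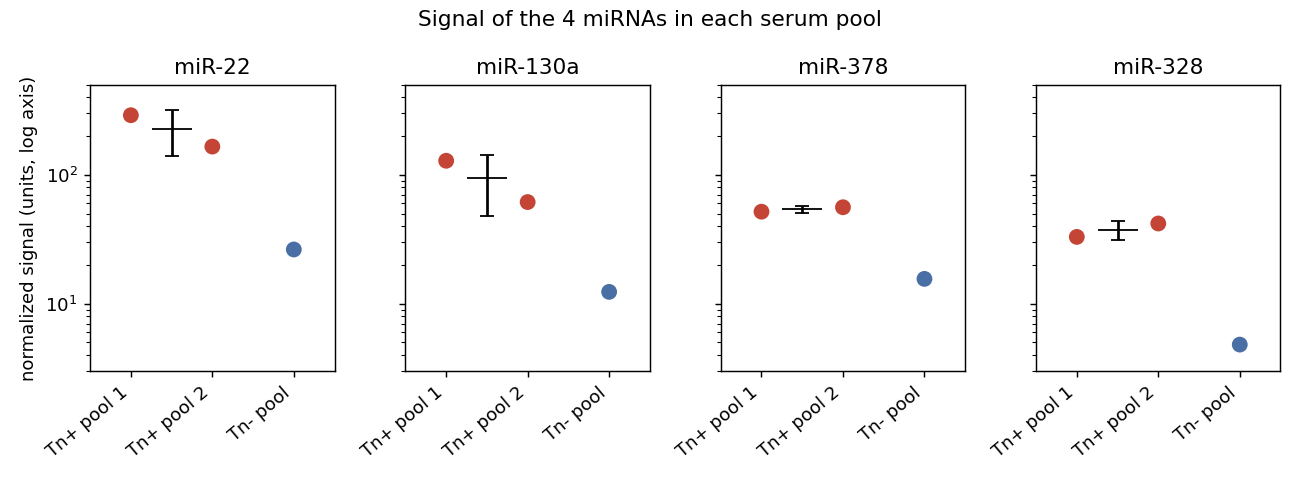
Normalized signal (log axis) of the 4 miRNAs in Tn+ pools 1 and 2 (red) and the Tn- pool (blue); the black bar is the Tn+ mean with its SD (n = 2). Every Tn+ point lies above the Tn- point of the same miRNA, and the Tn+ pools lie closest together for miR-378 (51.8 and 56.1 units).

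miR-22, known for restraining Tet enzymes and abundant in heart and skeletal muscle, had 291 units in Tn+ pool 1 and 166 units in Tn+ pool 2, against 26.4 units in the Tn- pool. The Tn+ mean was 228 ± 88.3 units (SD, n = 2). Both Tn+ pools were high, at 11.0-fold and 6.30-fold the Tn- value, and they differed from each other by 1.75-fold. In limma on log2(signal + 1) the ratio was 3.01 (SE 0.48), with an adjusted p of 0.277 over all probes. By signal, the probe ranked 13th and 15th of 566 in Tn+ serum and 16th in Tn- serum.

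miR-130a, which in endothelial cells lowers homeobox regulators that oppose vessel growth, had 129 units in Tn+ pool 1 and 61.6 units in Tn+ pool 2, against 12.4 units in the Tn- pool. Its Tn+ mean was 95.2 ± 47.6 units (SD, n = 2). It was again high in both Tn+ pools, 10.4-fold and 4.98-fold above the Tn- pool. The Tn+ pools differed by 2.09-fold, the widest of the 4 members on the deposited scale. The limma log2 ratio was 2.75 (SE 0.61, adjusted p = 0.350 over all probes). Its rank hardly moved, being 23rd and 24th in Tn+ serum and 23rd in Tn- serum.

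The probes matched to the seed of miR-130a, miR-301a and miR-130b, had little signal, and miR-301b, of the same family, was at the floor in every pool. miR-301a had 16.0 units in Tn+ pool 1 and was at the floor in both Tn+ pool 2 and Tn- serum. miR-130b had 9.73 units in Tn+ pool 1 and was likewise at the floor in the other pools. miR-301a and miR-130b were thus above the floor only in the pool where miR-130a was highest, which is also the pool with the most signal in all. Whether the miR-130a probe and theirs share signal was not tested.

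miR-378, encoded within Ppargc1b and known for a part in mitochondrial energy metabolism, had 51.8 units in Tn+ pool 1 and 56.1 units in Tn+ pool 2, against 15.6 units in the Tn- pool. With a Tn+ mean of 54.0 ± 3.03 units (SD, n = 2), it varied least between the Tn+ pools on the deposited scale. With equal totals its log2 ratios in Tn+ pools 1 and 2 were -2.03 and -1.06, and those of miR-22 were -0.35 and -0.27. The deposited values were 3.33-fold and 3.60-fold above the Tn- pool, the smallest excess of the 4 members in each pool. limma gave a log2 ratio of 1.73 (SE 0.17), and an adjusted p of 0.208 over all probes. The probe stood 29th and 25th by signal in Tn+ serum and 19th in Tn- serum.

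miR-328, reported in human breast cancer cells to lower the drug efflux pump ABCG2, had 33.0 units in Tn+ pool 1 and 42.0 units in Tn+ pool 2, against 4.81 units in the Tn- pool. The Tn+ pools averaged 37.5 ± 6.33 units (SD, n = 2), and both lay well above the Tn- value, by 6.86-fold and 8.72-fold. Its limma log2 ratio was 2.72 (SE 0.24, adjusted p = 0.205 over all probes). It was the least precisely measured member in Tn- serum, where 1 grid step is 22.4% of its value, against 4.09% for miR-22, 8.72% for miR-130a and 6.92% for miR-378. Its rank was 37th and 29th in Tn+ serum and 40th in Tn- serum.

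On the deposited scale, the 4 miRNAs fell into pairs by how the Tn+ pools differed. miR-22 and miR-130a had more signal in Tn+ pool 1, by 0.81 and 1.05 on the log2(signal + 1) scale. miR-378 and miR-328 had slightly less there than in Tn+ pool 2, with differences of -0.11 and -0.34. For comparison, the median of this difference was -0.03 over the 39 probes with a mean of 10 units or more and above the floor in every pool, a group set after seeing the data. Of these 39, 19 had more signal in Tn+ pool 1. Differences between the Tn+ pools depend on the scale. With equal totals the log2 ratios in Tn+ pools 1 and 2 were nearly level for miR-22 (-0.35 and -0.27) and miR-130a (-0.43 and -0.60). miR-378 (-2.03 and -1.06) and miR-328 (-0.98 and 0.19) were then lower in Tn+ pool 1. The ratio of miR-22 to miR-130a was accordingly close to constant, at 2.26 and 2.70 in Tn+ serum and 2.13 in Tn- serum. The ratio of miR-22 to miR-378 was 5.61 and 2.96 in Tn+ serum and 1.69 in Tn- serum. That of miR-378 to miR-328 was 1.57 and 1.34 in the Tn+ pools, against 3.24 in the Tn- pool. Probes can differ in efficiency, so these ratios are comparable between pools and not as amounts of one miRNA against another.

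On the deposited scale, an excess in Tn+ serum was the usual case for well-measured probes. By a rule of size, which asks each Tn+ pool to exceed the Tn- pool by 2-fold or more on signal + 1, 68 of 566 probes (12%) were higher and 4 (0.707%) were at least 2-fold lower. All 4 members met the rule for higher signal, as did 26 of the 39 well-measured probes (66.7%). Of these 39, 33 (84.6%) were higher in both Tn+ pools and 2 (5.13%) lower in both. Some of the 39 were low in the Tn- pool. There miR-15a and miR-30c had the lowest value above the floor, 1.58 units. The members' median log2 ratio was 2.74, beside 2.72 over the 39 probes, which include the 4 members. The mean filter covers 2 Tn+ pools and 1 Tn- pool, so it favours probes high in Tn+ serum, and the shares among the 39 depend on it in part. Without it, over the 60 probes above the floor in every pool, the median was 1.47. Among the 39, miR-22 ranked 16th by log2 ratio, miR-130a 19th, miR-328 20th, which is the median itself, and miR-378 25th. limma called 0 of 566 probes (0%) at an adjusted p of 0.05. At an unadjusted p under 0.05 it gave 56 probes higher (9.89%) and 7 lower (1.24%), and the 4 members were among the higher ones. The fit has 1 residual degree of freedom, and assumes that Tn- serum varies like the Tn+ pools.

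**Figure D2:**
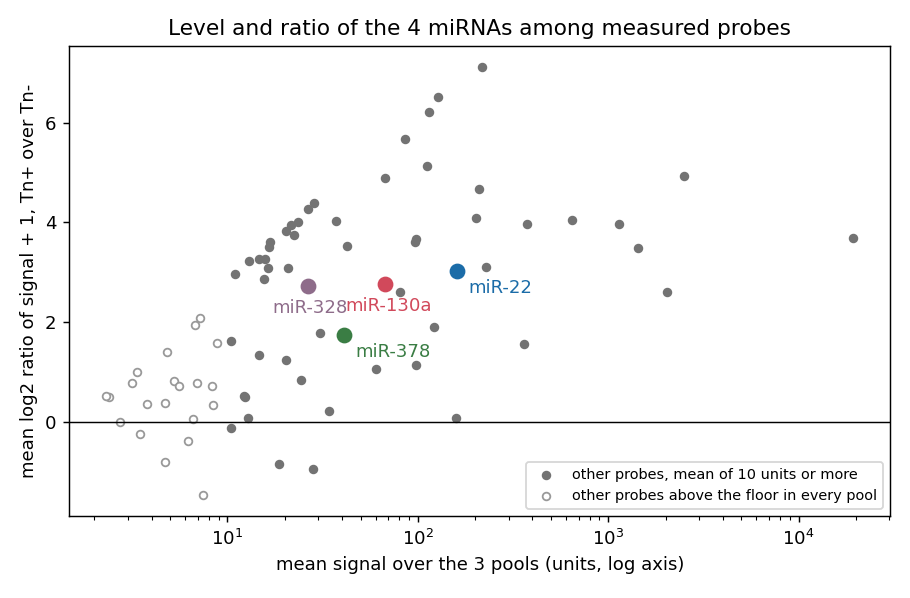
Mean log2 ratio of signal + 1, Tn+ over Tn-, against mean signal over the 3 pools (log axis), for the 4 miRNAs (coloured), other probes with a mean of 10 units or more (filled) and other probes above the floor in every pool (open). miR-22, miR-130a and miR-328 lie at 3.01, 2.75 and 2.72, inside the cloud of other probes, and miR-378 lies lower, at 1.73.

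Relative to the whole signal of its pool, no member was consistently more abundant in Tn+ serum. miR-22 made up 0.489% and 0.519% of the total in the Tn+ pools, against 0.627% in the Tn- pool. The share of miR-130a was 0.217% and 0.192% against 0.294%. The share of miR-378 was 0.0872% and 0.175%, against 0.371% in the Tn- pool, so both Tn+ pools were low by this measure. miR-328 overlapped between the groups, at 0.0555% and 0.131% against 0.114%.

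Leaving miR-451 out of the total changed the picture for miR-22 and miR-130a. miR-22 then made up 1.77% of Tn+ pool 1 and 0.882% of Tn+ pool 2, with the Tn- pool in between at 1.12%. miR-130a was at 0.785% and 0.327%, around 0.526% in the Tn- pool. miR-378 had 0.316% and 0.298% against 0.664%, and remained low in both Tn+ pools. miR-328 had 0.201% and 0.223% against 0.205%.

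The ratio of each member to miR-23a, a miRNA used as a stable partner of miR-451 in tests for red cell lysis in serum, was lower in both Tn+ pools. miR-23a was not level here. Its own log2 ratio was 4.08 on the deposited scale, larger than that of any member, so a lower ratio to it is not a fall of the member. miR-22 was at 74.0% and 83.6% of the miR-23a signal in the Tn+ pools, against 169% in the Tn- pool. For miR-378 these values were 13.2% and 28.2%, against 100.0%. miR-451 itself stood at 110 and 66.2 times miR-23a in Tn+ serum and 119 times in Tn- serum.

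Scaling the pools therefore set the direction of the members' ratios. The Tn+ pools were divided, relative to the Tn- pool, by 3.18 with median of ratios over the 60 probes above the floor in every pool, and by 6.06 with the geometric mean of the 100 highest probes. The divisor was 10.4 with equal totals and 7.48 with equal totals without miR-451. miR-22 then had log2 ratios of 1.38, 0.46, -0.31 and 0.16 in these 4 scalings, in that order. miR-130a had 1.15, 0.25, -0.51 and -0.049, and miR-328 had 1.21, 0.34, -0.40 and 0.046. miR-378 had 0.12, -0.79, -1.54 and -1.09. The median log2 ratio of the 39 well-measured probes, members included, moved with them, to 1.15, 0.25, -0.51 and -0.049, the values of miR-130a itself. Relative to miR-23a and to miR-451, with divisors of 17.9 and 12.8, this median was -1.29 and -0.81. In these scaled sets, with limma restricted to the 58 probes with a mean of 10 units or more, no member passed an adjusted p of 0.05. Over all 566 probes miR-328 passed once, higher in Tn+ serum with median of ratios, and miR-378 passed as lower in 4 of the 6 scalings, but every such fit also called all 307 probes tied at the floor.

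**Figure D3:**
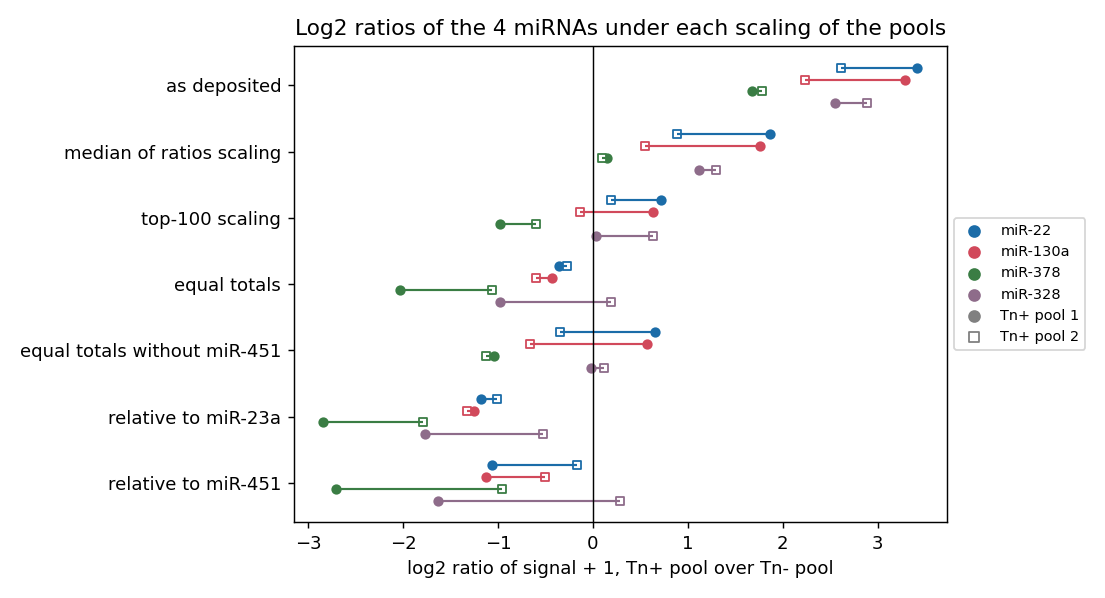
Log2 ratio of signal + 1 of each Tn+ pool over the Tn- pool (circles, Tn+ pool 1; open squares, Tn+ pool 2; lines join the pools) for the 4 miRNAs, as deposited and under 6 scalings of the pools. All points are above 0 as deposited, and those of miR-378 are below 0 in 5 of the 6 scalings, median of ratios being the exception.

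A scaling shifts all log2 ratios by the same amount apart from the pseudocount, so the place of the members among the well-measured probes is nearly fixed by construction. With the 39 probes as the frame, miR-22 stood 0.19 to 0.29 above their median log2 ratio as deposited and in the 6 scalings. miR-130a stood 0 to 0.04 above it, and miR-328 0 to 0.14 above it, a difference of 0 meaning that the probe was itself the median. miR-378 stood below the median, with differences from -1.04 to -0.99, and ranked 25th or 26th of 39. Whether miR-378 differs in this from the other members was not tested, since the Tn- pool is single. The place also depends on the frame. Over the 60 probes above the floor in every pool, the deposited median was 1.47, and each member lay above it, miR-378 at rank 27. Over the 58 probes with a mean of 10 units or more it was 3.17, and each member lay below it, miR-22 at rank 33.

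The probes with the most similar pattern were sought among the other 59 probes above the floor in every pool, as the smallest Euclidean distance between log2(signal + 1) values centred per probe over the 3 pools. With only 3 pools this describes likeness and no more. miR-22 was nearest to miR-130a, at a distance of 0.27, then to the lymphocyte miRNA miR-150 (0.37) and to miR-16, abundant in red cells (0.39). miR-130a was nearest to miR-22, miR-150 (0.28) and the probe that miR-17 shares with miR-106a (0.59). The median distance to all 59 probes was 1.88 for miR-22 and 1.94 for miR-130a.

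miR-150 had 318 units in Tn+ pool 1 and 126 units in Tn+ pool 2, against 24.2 units in the Tn- pool, with Tn+ pool 1 highest as for miR-22. The nearest probes to miR-378 were miR-2133 (0.35), miR-30e (0.36) and miR-431 (0.38), with a median of 1.45 over all. miR-2133 had 130 and 192 units in the Tn+ pools, against 41.4 units in the Tn- pool. miR-30e had 10.6 and 9.32 units in the Tn+ pools, against 1.58 units in the Tn- pool, the lowest value there above the floor. miR-328 was nearest to miR-1224 (0.32), the epithelial miR-205 (0.36) and miR-30e (0.63), with a median of 1.83 over all. miR-1224 had 2096 and 3565 units in the Tn+ pools, against 452 units in the Tn- pool. Between members the distance was 0.82 for miR-378 and miR-328, and 0.84 to 1.23 for the other pairs apart from miR-22 with miR-130a.

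**Figure D4:**
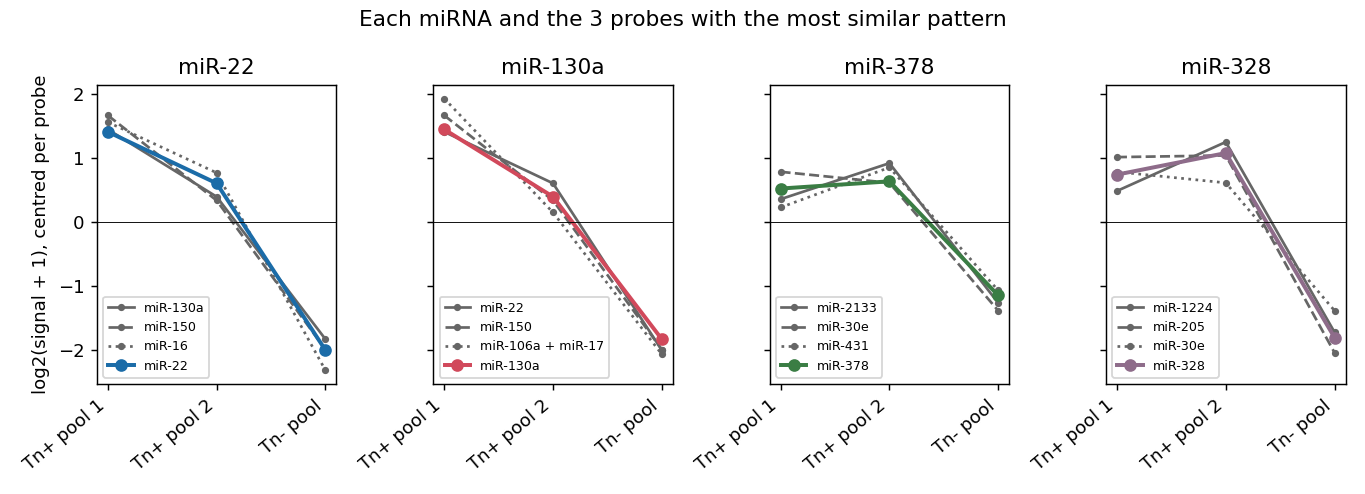
Log2(signal + 1), centred on each probe's mean over the 3 pools, for each of the 4 miRNAs (coloured) and the 3 probes nearest to it (grey). miR-22 and miR-130a share a profile that is highest in Tn+ pool 1, while miR-378 and miR-328 have Tn+ pools at a similar height, and all profiles are lowest in the Tn- pool.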

How the data were processed

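Cell-free miRNA was profiled in 3 serum pools (2 Tn+, 1 Tn-, grouped by title) with the nCounter Mouse v1.5 assay of NanoString, in which fluorescent barcodes bound to miRNAs are counted without amplifying them. The labels' protocols give 200 µL of serum extracted into 20 µL, and some 30 ng of RNA kept for 16.5 h with barcodes that cover 527 miRNAs. The table holds 566 endogenous probes. Its values are a normalized signal that the authors deposited, made in the nCounter Advanced Analysis Software as the series' design text says. The submitters' processing notes name R 4.4. Which probes set the scale and how background was removed is not given in the sources used here. The second deposited table held the same signal (1698 of 1698 values equal). All values up to 60 units lay within 0.05 steps of a regular grid in each pool, but the background subtracted is unknown, so counts were not recovered and no count model was used.

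Log2(signal + 1) was fitted over all probes in R 4.3.3 with limma 3.58.1 (lmFit, eBayes, Benjamini-Hochberg over 566 probes, two-sided). The pseudocount makes changes of low probes look smaller. Alternatives were 6 scalings, pseudocounts of 0.5 and 10, filters on low values and leaving out each Tn+ pool. The code of the fit was run on simulated data as a check, which gives no error rate for these pools. Python 3.11.15 with numpy 2.4.6, pandas 2.3.3 and matplotlib 3.10.9 did the rest. The members, the marker lists and the rule for similar probes were chosen with earlier results of these data known. Named probes were the 4 members, opposite arms, probes sharing a seed with a member, the 3 nearest probes to each, and miR-451 and miR-23a. miR-301b, miR-15a and miR-30c, and the cell type miRNAs named as at the floor or lower, were named after their values were seen.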

Additional observations from a re-analysis of the deposited data

How the results depend on the processing

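No paired analysis was possible because the labels link no Tn+ pool to the Tn- pool. As deposited, the members' log2 ratios stayed positive with pseudocounts of 0.5 and 10, with both filters and without either Tn+ pool. Without Tn+ pool 1 or 2 they were 2.61 and 3.42 for miR-22, 2.23 and 3.28 for miR-130a, 1.78 and 1.67 for miR-378, and 2.89 and 2.55 for miR-328. The ratios turned negative with equal totals (miR-22 -0.31, miR-130a -0.51, miR-378 -1.54, miR-328 -0.40), relative to miR-23a (-1.10, -1.29, -2.31 and -1.15 in the same order) and relative to miR-451 (-0.62, -0.81, -1.83 and -0.67). They also did so for miR-378 with top-100 scaling (-0.79), and for miR-130a (-0.049) and miR-378 (-1.09) with equal totals without miR-451. Each of the 6 scalings divided the Tn+ pools by more than the Tn- pool, as the Tn+ pools held more deposited signal. Median of ratios, where no member's ratio turned negative, did so least (3.18). Over all 566 probes limma called 336 probes with median of ratios (miR-328 among them, 1.21, adjusted p = 0.0293), 369 with top-100, 463 with equal totals, 390 without miR-451, 511 relative to miR-23a and 445 relative to miR-451, against 0 as deposited. Nearly all were lower in Tn+ serum, with 325, 350, 454, 385, 507 and 441 lower in the same order and 11, 19, 9, 5, 4 and 4 higher. miR-378 was called lower in 4 of them (equal totals with and without miR-451, relative to miR-23a and to miR-451), with adjusted p from 0.00106 to 0.0498. Each of these sets held all 307 probes tied at the floor in every pool, so a large part of each count measures the scaled floor. The rest of each count was of probes above the floor in 1 or more pools. Restricted in the same scalings to the 58 probes averaging 10 units or more, an alternative added after seeing the data, limma called 1 probe with equal totals without miR-451 and 0 in the other 5. Unscaled, it called 29 of the 259 probes that left the floor in 1 or more pools and 32 of the 58, with none of the 4 members. The members' adjusted p ran over 16 alternatives from 0.0506 to 0.964 for miR-22, 0.0660 to 0.973 for miR-130a, 0.00106 to 0.943 for miR-378 and 0.0293 to 0.973 for miR-328. The count of probes exceeding the Tn- pool by 2-fold or more in each Tn+ pool, 68 as deposited, was 33, 18, 10, 13, 4 and 7 in the 6 scalings in the order above (28, 412, 456, 427, 487 and 466 lower by the same rule, against 4 as deposited, floor probes included), 35 with a pseudocount of 10, 44 among the 58 probes, and 31 among these after median of ratios. Among the 58, the rule gave 44 higher and 0 lower as deposited, but 10 higher and 13 lower with equal totals, and 4 higher and 18 lower relative to miR-23a. It was 96 and 120 with Tn+ pool 1 or 2 left out, when 1 pool has to meet the rule. Precision was limited by low signal in the Tn- pool, most for miR-328.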
